A study of Mus musculus with 96 samples.

Results

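The epidermal differentiation complex is a cluster of genes that encode the building blocks of the cornified layer of the skin, and its members are described here through the day in mouse back-skin epidermis. The members were taken by name, as every gene of the tables whose symbol starts with Sprr, Lce or S100a, together with Lor, Ivl, Flg2, Hrnr, Rptn, Tchh, Tchhl1, Crnn, Crct1, Kprp and Lelp1. That choice used names only, though it was made with earlier results of these data known. It gave 60 genes of the 22384 listed in all 4 tables, and 26 of the 60 had a mean level of at least 1 RPKM (read count divided by transcript length and library depth) over the 96 libraries and were measured. The other 34 fell under that level and were not tested, and Flg, the gene of filaggrin, was not analysed here. The 60 genes lay on 1 stretch of chromosome 3 of mm10 in the GENCODE M21 annotation (chr3:90511034-93564643). The group is made of 20 Lce genes (6 measured), 15 Sprr genes (5 measured), 14 S100a genes (8 measured), 6 genes of the fused S100 type (3 measured) and 5 other precursor genes (4 measured). Just inside the limit stood Sprr2b at 1.43 and Lce1c at 1.67 RPKM, and just outside it Lce1e at 0.939 and Lce1d at 0.903 RPKM.

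RNA was sequenced from the epidermis of 4 male C57BL/6 mice of 8 weeks at each of 6 times of a 12 h light and 12 h dark day, in 4 genotypes, 24 libraries per genotype. Times are zeitgeber times (ZT), with ZT0 at lights on and ZT12 at lights off. Arntl encodes BMAL1, a core transcription factor of the circadian clock, and in 3 of the genotypes both its alleles carry a stop cassette (stopFL/stopFL) that Cre recombinase removes. The RERE mice, reconstituted in brain and epidermis, are Arntl stopFL/stopFL, K14Cre tg/wt and Syt10-Cre tg/wt. The EpiRE mice, reconstituted in the epidermis, are Arntl stopFL/stopFL, K14Cre tg/wt and Syt10-Cre wt/wt. The BRE mice, reconstituted in the brain, are Arntl stopFL/stopFL, K14Cre wt/wt and Syt10-Cre tg/wt. The WT mice are Arntl wt/wt and carry both drivers (K14Cre wt/tg and Syt10-Cre tg/wt). K14Cre acts in keratinocytes of stratified epithelia and Syt10-Cre in the suprachiasmatic nucleus and other parts of the brain, so in BRE mice the keratinocytes keep the stop cassette, and in EpiRE mice the brain does. A genotype without either driver was not analysed here.

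The 96 libraries held between 11.2 M and 32.3 M counted reads (M, mega), with a median of 16.5 M, as estimated from the lowest values of the tables. The keratinocyte markers were abundant, as the epidermal label says, with a mean over the libraries of 6886 RPKM for Krt10, 6279 for Krt5 and 2960 for Krt14. The fibroblast marker Col1a1 was at 2.06 RPKM, and of the neutrophil list Ly6g, Elane and Mpo were between 0.0542 and 0.133 RPKM, Csf3r was at 5.88 RPKM and Cxcr2 at 11.8 RPKM. Cd207, the marker of Langerhans cells that live in the epidermis, was at 3.19 RPKM. Krt71, a keratin of the inner root sheath, was at or above 2 RPKM in 7 libraries, 6 of them WT (ZT0 replicate 2, ZT4 replicate 2, ZT12 replicate 1, ZT16 replicate 1, and ZT20 replicates 1 and 4) and 1 EpiRE (ZT16 replicate 3), between 2.17 and 3.84 RPKM. Krt25, another keratin of the inner root sheath, between 38.5 and 51.3 RPKM in the 6 WT libraries, against a WT median of 46.2 RPKM, and at 71.7 RPKM in the EpiRE library, against an EpiRE median of 56.6 RPKM. The 4 tables appear to have been normalized separately, so levels are set side by side between genotypes without a test. In bulk epidermis, fewer cells of a layer and less RNA per cell cannot be told apart.

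Keratinocytes divide in the basal layer, move up through the spinous and granular layers and end as dead, flattened corneocytes. In the granular layer a rim of protein, the cornified envelope, is built under the cell membrane and cross-linked by transglutaminases. Involucrin and the envelope scaffold are laid down first, loricrin, the small proline-rich (SPRR) proteins and the late cornified envelope (LCE) proteins follow, and the filaggrin family condenses keratin filaments and is later broken down to moisture-holding amino acids. The S100A proteins encoded in the same cluster bind calcium, whose gradient across the epidermis drives differentiation. AP-1 factors, which bind the heptamer TGANTCA, are classical activators of these genes.

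The RefSeq promoter windows of 4 members are shown because the results turn on these genes: Sprr2a3 and Sprr2b had the largest called daily changes in RERE and BRE, and Ivl and Hrnr had different fitted hours of peak in BRE and WT epidermis. Each window runs from 250 bases before to 50 bases after the RefSeq start on GRCm38.p6, 5′ to 3′ on the strand of the gene, and capitals mark a TGANTCA heptamer.
Sprr2a3, chr3:92285054-92285353, plus strand: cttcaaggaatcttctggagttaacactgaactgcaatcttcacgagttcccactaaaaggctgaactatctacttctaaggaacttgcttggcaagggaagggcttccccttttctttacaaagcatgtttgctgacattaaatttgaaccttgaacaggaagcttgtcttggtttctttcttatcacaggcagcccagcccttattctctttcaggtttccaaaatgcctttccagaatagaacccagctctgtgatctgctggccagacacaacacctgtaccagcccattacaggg
Sprr2b, chr3:92316455-92316754, plus strand: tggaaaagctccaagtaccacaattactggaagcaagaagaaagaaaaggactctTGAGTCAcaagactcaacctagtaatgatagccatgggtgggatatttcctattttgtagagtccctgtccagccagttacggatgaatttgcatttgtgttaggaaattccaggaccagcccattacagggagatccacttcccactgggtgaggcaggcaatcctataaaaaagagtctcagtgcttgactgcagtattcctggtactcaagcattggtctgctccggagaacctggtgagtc
Ivl, chr3:92573686-92573985, minus strand: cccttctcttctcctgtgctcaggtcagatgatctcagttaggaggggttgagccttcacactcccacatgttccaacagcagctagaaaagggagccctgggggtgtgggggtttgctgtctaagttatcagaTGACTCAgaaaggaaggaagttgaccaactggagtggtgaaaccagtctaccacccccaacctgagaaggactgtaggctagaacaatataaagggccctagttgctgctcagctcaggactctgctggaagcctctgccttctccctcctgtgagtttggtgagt
Hrnr, chr3:93319499-93319798, plus strand: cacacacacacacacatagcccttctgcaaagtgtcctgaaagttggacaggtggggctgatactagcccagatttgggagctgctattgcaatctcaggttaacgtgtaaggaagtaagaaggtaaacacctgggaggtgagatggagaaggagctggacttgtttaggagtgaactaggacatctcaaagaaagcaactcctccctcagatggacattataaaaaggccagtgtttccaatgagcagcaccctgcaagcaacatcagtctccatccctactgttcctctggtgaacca

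The AP-1 heptamer began 116 bases before the start in the Ivl window and 195 bases before it in the Sprr2b window, and these letters were absent from the Sprr2a3 and Hrnr windows. RefSeq held a window for 22 of the 26 measured members (23 windows), and TGANTCA, searched on both strands, was in 8 of these 23, those of Flg2, Ivl, Lor, S100a11, S100a16, Sprr1a, Sprr1b and Sprr2b. Of all 32817 windows of full length, 7.81% held it. The E-box CACGTG, which CLOCK and BMAL1 bind, was in the windows of S100a11 and S100a6 and in 7.15% of all windows. The D-box TTATGTAA, which the clock output factors DBP, TEF and HLF bind, was in none of the 23 windows and in 0.935% of all. The palindromic glucocorticoid response element (AGAACA, 3 bases of any kind, TGTTCT) was likewise in none of the 23 and in 0.00914% of all. The palindrome CACGTG and the heptamer do not overlap in any of these windows, and a match describes letters only. The Sprr2a3 and Sprr2b windows shared no run longer than 17 bases, whereas the Sprr2a3 window shared a run of 272 bases with the windows of its near copies Sprr2a1 and Sprr2a2. The 17 bases began 33 bases after the start in the Sprr2a3 window, at its end, and 80 bases before the start in the Sprr2b window. The GENCODE M21 start of Sprr2a3 (chr3:92285417) lies beyond the end of its RefSeq window. The Sprr2a3 and Sprr2b windows are thus not aligned, and what the Sprr2a3 window lacks depends on the start used.

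Levels of the measured members ran from 1.43 to 1142 RPKM, and the S100A genes led. S100a11, a transglutaminase substrate and annexin partner, averaged 1142 RPKM over the 96 libraries, and 41% of its exon runs of 51 bases (the read length) also occur in the gene models Gm12854, Gm7665 and Gm29240. Next came S100a10, the annexin A2 partner, 429.5 RPKM, S100a14 307 RPKM, S100a6 195.8 RPKM and S100a16 186.6 RPKM. Of the structural genes, Flg2 (filaggrin 2) averaged 59.6 RPKM, Sprr1a 49.4, Ivl (involucrin) 27.5, Hrnr (hornerin) 26.4 and Lor (loricrin) 15.1 RPKM. Sprr2a3 stood at 13.4 RPKM, Kprp, a proline-rich keratinocyte protein, at 6.92 and Tchh, the trichohyalin of the inner root sheath of the hair, at 4.04 RPKM. Of the Lce genes the highest, Lce1a1, averaged 3.38 RPKM, and Lce1m and Lce6a were at 1.97 and 1.94 RPKM.

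**Figure D1:**
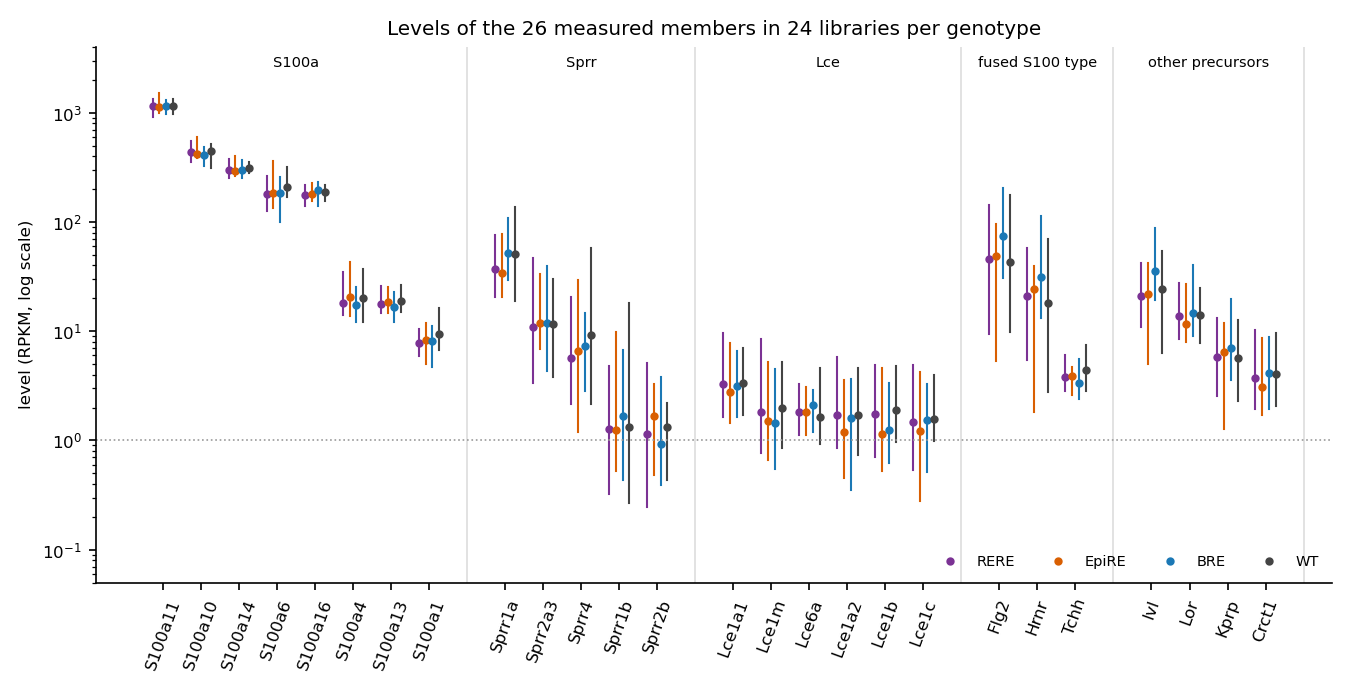
Level of each of the 26 measured genes of the epidermal differentiation complex, in RPKM on a log axis, in RERE, EpiRE, BRE and WT epidermis. Points are medians and bars run from the lowest to the highest of 24 libraries per genotype, normalized separately per genotype, and the dotted line marks 1 RPKM. The bars of S100a11 (916.3 to 1506 RPKM) are short and those of Hrnr (1.83 to 114 RPKM) and Sprr1b (0.265 to 18.3 RPKM) long.

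The range between libraries differed widely among members. S100a11 ran from 916.3 to 1506 RPKM over the 96 libraries, a 1.64-fold range, and the other 7 measured S100A genes had ranges between 1.599-fold for S100a14 and 3.60-fold for S100a6, while Tchh had 3.14-fold. Hrnr ran from 1.83 to 114 RPKM (62.4-fold), Flg2 from 5.32 to 206 RPKM (38.8-fold), Ivl from 4.96 to 88.9 RPKM (17.9-fold) and Sprr1b from 0.265 to 18.3 RPKM (69.1-fold). Within a genotype and time, the SD between the mice was 0.0990 to 0.150 log2 for S100a11, 0.270 to 0.424 for S100a4, 0.179 to 0.264 for Tchh, 0.396 to 0.591 for Ivl, 0.613 to 1.02 for Hrnr and 0.607 to 1.04 for Flg2, each range over the 4 genotypes. Part of the spread of Hrnr lay in single libraries, such as EpiRE ZT8 replicate 4, where Hrnr was 1.83, Kprp 1.27 and Ivl 4.96 RPKM.

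Genotype means were close for most members and differed most for the precursors in BRE and for Sprr4 and Sprr1b in WT. Ivl averaged 21.9 ± 7.80 RPKM in RERE, 24.04 ± 7.80 in EpiRE, 37.1 ± 17.4 in BRE and 26.7 ± 12.8 in WT (SD, n = 24 each). Flg2 averaged 49.8 RPKM in RERE, 54.2 in EpiRE, 78.7 in BRE and 55.6 in WT, and Hrnr 22.4 RPKM in RERE, 23.1 in EpiRE, 36.8 in BRE and 23.3 in WT. Sprr4, a small proline-rich protein known from injured and irradiated epidermis, averaged 6.93 RPKM in RERE, 7.89 in EpiRE, 7.34 in BRE and 14.2 in WT. Its medians were 5.72, 6.54, 7.3 and 9.31 RPKM in the same order, and 1 WT library reached 57.6 RPKM. Sprr1b averaged 1.58 RPKM in RERE, 1.84 in EpiRE, 2.07 in BRE and 3.37 in WT, where the SD was 5.21 RPKM. Its medians were 1.28, 1.25, 1.66 and 1.32 RPKM in that order, so the higher WT mean came from some libraries, up to 18.3 RPKM. The lowest values of the tables were offset on the log2 scale against those of WT by 0.03 (RERE), 0.13 (EpiRE) and 0.10 (BRE). These floors follow the mean depth of a table and bear on genes near them. Over all genes tested, median-of-ratios rescaling of the 96 libraries gave mean shifts of -0.0017 log2 in RERE, 0.0231 in EpiRE, -0.0278 in BRE and 0.0101 in WT. No level was tested between genotypes. The summed mean of the 26 members was 2493 RPKM in RERE, 2510 in EpiRE, 2567 in BRE and 2587 in WT.

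A daily rhythm of 24 h was found in members of the complex in RERE, BRE and WT epidermis and in none in EpiRE epidermis. The test was limma's F test of the cosine and sine terms, with Benjamini-Hochberg adjustment over all 12144 genes tested and a call at an adjusted p under 0.05. In RERE, 6 of the 26 measured members were called (23.1%), against 16.4% of all genes. In EpiRE, 0 of 26 were called, against 2.87% of all genes. There, 1 member had an unadjusted p under 0.05 (Tchh, p = 0.00755, limma adjusted p = 0.103), and neither of the authors' own rhythm searches called a member. Those searches called 0.156% (JTK_CYCLE) and 0% (BIOCYCLE) of all genes in EpiRE, so their lack of a call says little about the members. In BRE, 9 of 26 were called (34.6%), against 17.1% of all genes, and in WT 6 of 26 (23.1%), against 34.4% of all genes. The median fitted size, from trough to peak, over the 26 members was 0.46 log2 in RERE, against 0.18 over all genes tested, 0.40 in EpiRE, against 0.15, 0.60 in BRE, against 0.20, and 0.46 in WT, against 0.23. A fitted size cannot fall under 0 and grows with the spread between mice, and it exceeded that of all genes also in EpiRE, where no member was called. The spread of the members was not set against that of all genes, so these medians do not show larger rhythms in the complex.

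The called members were spread over the roles of the complex. In RERE they were S100a1, S100a16, Sprr2a3, Sprr2b, Tchh and Lce6a, with none of the 4 other precursors. In BRE they were S100a1, S100a4, S100a16, Sprr2a3, Sprr2b, Ivl, Kprp, Hrnr and Tchh, with none of the 6 Lce genes. In WT they were S100a1, S100a16, Sprr2a3, Ivl, Tchh and Lce6a. S100a1, S100a16, Sprr2a3 and Tchh were thus called in each of the 3 genotypes with any call. The hours whose single libraries are printed for a gene are mostly a high and a low hour of that genotype, chosen after the values were seen, so an absence of overlap between them describes the values and tests nothing.

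The hours of peak of the called members are given by genotype as a description, since the called genes are not the same in each. In RERE, 5 of the 6 peaked between ZT0 and ZT6, against 42.2% of all genes called there, and Tchh between ZT12 and ZT18. In BRE, 5 of the 9 peaked between ZT0 and ZT6, against 56.5% of all called genes, and 4 (Ivl, Hrnr, Kprp and Tchh) between ZT12 and ZT18, against 10.0%. In WT, 3 of the 6 peaked between ZT18 and ZT24, against 47.8% of all called genes, 2 between ZT0 and ZT6 and 1 between ZT12 and ZT18.

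**Figure D2:**
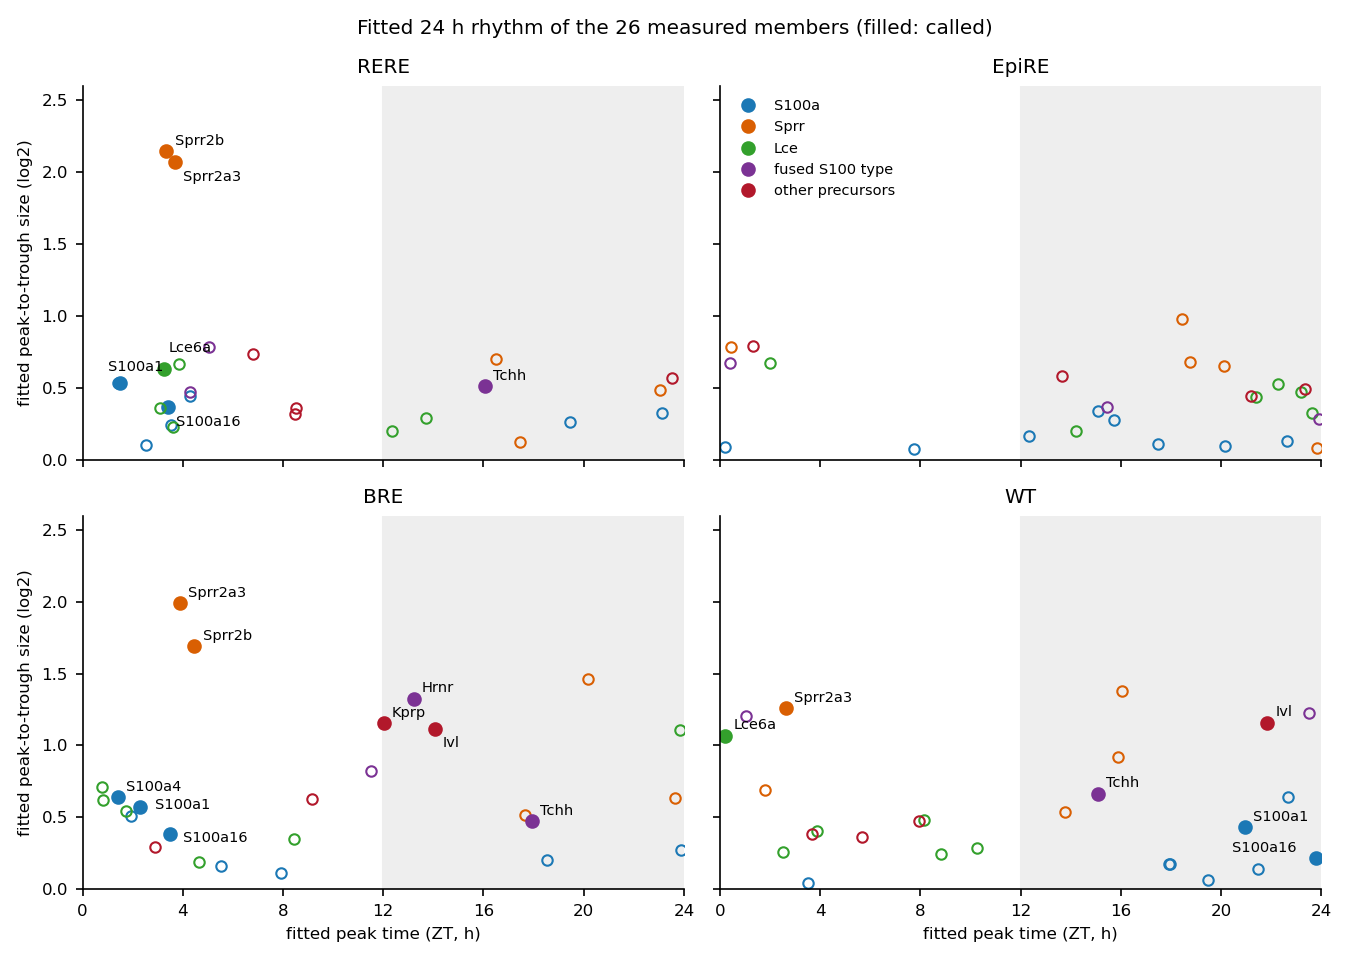
Hour of fitted peak (ZT in hours, horizontal) against fitted peak-to-trough size (log2, vertical) of the 26 measured members, in panels for RERE, EpiRE, BRE and WT epidermis, with called members filled and named (limma adjusted p under 0.05), the rest open and the dark phase in grey. Colours give the family. Ivl, Hrnr and Kprp lie between ZT12.0 and ZT14.05 in BRE, and Ivl lies at ZT21.8 in WT.

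Involucrin is among the first proteins of the envelope, and the fitted peak of its transcript fell early in the night in BRE and late in the night in WT. In BRE, Ivl was at 36.4, 19.2, 20.5 and 22.9 RPKM at ZT0, at 36.7, 36.6, 48.4 and 46.1 RPKM at ZT12 and at 37.5, 88.9, 85.4 and 39.9 RPKM at ZT16. All BRE values at ZT12 and at ZT16 lay above all 4 at ZT0. In WT, Ivl was at 54.7, 40.2, 32.0 and 50.6 RPKM at ZT0, at 11.7, 17.2, 14.4 and 15.3 RPKM at ZT12 and at 32.8, 30.2, 27.3 and 46.9 RPKM at ZT16. The WT libraries at ZT12 were thus below every WT library at ZT0 and below every BRE library at ZT12. At ZT20, the sampled hour nearest the fitted WT peak, Ivl in WT was at 22.1, 32.8, 21.1 and 18.85 RPKM. The WT mean at ZT20 was below those at ZT16 and ZT0, so the fitted WT peak lies between higher hours.

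The fitted size of the Ivl rhythm was 1.12 ± 0.23 log2 in BRE (SE, 2.17-fold, peak at ZT14.05, adjusted p = 0.00849, limma) and 1.16 ± 0.36 log2 in WT (2.23-fold, peak at ZT21.8, adjusted p = 0.0436). The rhythms of Ivl in BRE and WT differed in the test of genotype by time (adjusted p = 0.00396, limma), with the fitted BRE peak 7.78 h before the fitted WT peak and nearly equal sizes. In RERE the 4 libraries at ZT0 had 12.3, 26.5, 42.3 and 30.4 RPKM and those at ZT12 15.4, 15.1, 17.3 and 17.7 RPKM of Ivl. In EpiRE the values were 36.5, 26.5, 26.5 and 34.0 RPKM at ZT0 and 19.5, 23.5, 21.7 and 19.3 RPKM at ZT12. The ZT0 values lay above all ZT12 values in EpiRE and overlapped them in RERE, and the fits gave 0.57 ± 0.26 log2 with a peak at ZT23.5 in RERE (adjusted p = 0.267, limma) and 0.49 ± 0.33 log2 with a peak at ZT23.4 in EpiRE (adjusted p = 0.620).

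The Ivl rhythm also differed between RERE and BRE (adjusted p = 0.00740, limma), whose fitted peaks were 9.49 h apart, and no difference was called between RERE and WT (adjusted p = 0.717, limma). The WT call of Ivl did not hold when any of 14 of the 24 WT libraries was left out alone (adjusted p up to 0.0838, without WT ZT0 replicate 1), nor with median-of-ratios rescaling (0.0521). The BRE call and the differences of BRE from WT and of RERE from BRE held without any single library, and the last of these was lost with time fitted as 6 levels (adjusted p = 0.0816, limma). Without all libraries of replicate number 2, 3 or 4, the BRE call and the difference of RERE from BRE were lost (adjusted p up to 0.214 for this difference, limma). The difference of BRE from WT was lost without replicate number 2.

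Hornerin and KPRP, which are made in the granular layer, followed the same hours as Ivl in BRE. In BRE, Hrnr was at 27.35, 16.4, 14.9 and 16.4 RPKM at ZT0, at 43.8, 52.4, 53.9 and 32.2 RPKM at ZT12 and at 25.7, 78.8, 114 and 24.8 RPKM at ZT16. The first 2 of these hours did not overlap, and at ZT16 the libraries split into 2 high and 2 low. In WT, Hrnr was at 70.4, 21.7, 18.9 and 47.7 RPKM at ZT0 and at 6.27, 16, 6.27 and 12.3 RPKM at ZT12, so that at ZT12 every BRE library was above every WT library and at ZT0 the groups overlapped. The size of the Hrnr rhythm was 1.33 ± 0.33 log2 in BRE (2.51-fold, peak at ZT13.2, adjusted p = 0.0242, limma) and 1.22 ± 0.58 log2 in WT (peak at ZT23.5, adjusted p = 0.230), and the 2 rhythms differed (adjusted p = 0.0219), with the BRE peak 10.3 h before that of WT. The Hrnr rhythm was not called in RERE (adjusted p = 0.785, limma) or in EpiRE (0.735).

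Kprp in BRE was at 6.67, 9.95, 12.2 and 10.99 RPKM at ZT12 and at 8.17, 5.21, 4.16 and 3.57 RPKM at ZT0, with 1 ZT0 library inside the range of ZT12. In WT it was at 2.63, 5.48, 2.91 and 5.28 RPKM at ZT12, below every BRE library of that hour. Its rhythm in BRE had a size of 1.16 ± 0.29 log2 (2.23-fold, peak at ZT12.0, adjusted p = 0.0240, limma), and its difference from WT was not called (adjusted p = 0.118). Left out alone, BRE ZT0 replicate 3 ended the BRE calls of both Hrnr and Kprp (adjusted p = 0.0515 and 0.0512, limma), and BRE ZT0 replicate 4 that of Kprp. With time fitted as 6 levels, both BRE calls (adjusted p = 0.109 for Hrnr and 0.0798 for Kprp) and the Hrnr difference from WT (0.0829) were lost.

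Filaggrin 2 and loricrin, the other abundant structural genes of the granular layer, were not called in any genotype. Flg2 in BRE was at 73.3, 79.5, 96.96 and 75.5 RPKM at ZT12, and in WT at 14.6, 35.4, 14.9 and 39.5 RPKM. The groups did not overlap at that hour. The fitted Flg2 rhythm was 0.82 ± 0.35 log2 with a peak at ZT11.5 in BRE (adjusted p = 0.195, limma) and 1.21 ± 0.56 log2 with a peak at ZT1.05 in WT (adjusted p = 0.220), and the difference between them was not called (adjusted p = 0.0726). Lor had fitted sizes of 0.36 log2 in RERE, 0.58 in EpiRE, 0.63 in BRE and 0.48 in WT, with adjusted p between 0.227 and 0.572 (limma).

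Of 20 cornified envelope and barrier genes elsewhere in the genome, 3 were called in RERE (against 16.4% of all genes), 0 in EpiRE (against 2.87%, with 0 at an unadjusted p under 0.05, limma), 7 in BRE (against 17.1%) and 2 in WT (against 34.4%). Between BRE and WT 7 of the 20 differed, against 20.2% of all genes. The 7 called in BRE had fitted peaks from ZT9.88 (Casp14, a protease of the cornifying cell) to ZT13.1 (Tgm1), and the 13 not called had fitted peaks from ZT7.13 (Tgm5) to ZT20.45 (Cst6). In BRE, Asprv1, the protease that trims profilaggrin, had a size of 0.85 ± 0.19 log2 (peak at ZT12.1, adjusted p = 0.0153, limma), and Tgm1, the main envelope transglutaminase, 0.88 ± 0.22 log2 (peak at ZT13.1, adjusted p = 0.0260). Sbsn (suprabasin) had 0.72 ± 0.19 log2 (peak at ZT12.2, adjusted p = 0.0345) and Krt10, the keratin of the spinous layer, 0.53 ± 0.14 log2 (peak at ZT10.6, adjusted p = 0.0363). The rhythms of Asprv1 (adjusted p = 0.00386), Sbsn (0.0337) and Krt10 (0.0309) differed between BRE and WT by limma's test, and that of Tgm1 did not pass it (0.0635).

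Levels of the layer markers are given beside these rhythms. The summed level of the 5 spinous markers Krt1, Krt10, Dsg1a, Sbsn and Krtdap averaged 15450 RPKM at ZT12 and 12100 RPKM at ZT0 in BRE, and 8044 RPKM at ZT12 and 14600 RPKM at ZT0 in WT. Over the 6 hours the mean of this sum was highest at ZT8 in BRE (16870 RPKM), where Ivl, Hrnr and Kprp had their highest means at ZT16, and at ZT0 in WT, and 2 of the 5 markers were called in BRE and 0 in WT (limma). Over all libraries of a genotype the spinous sum ran from 8487 to 17700 RPKM in RERE, 6248 to 16480 in EpiRE, 9544 to 20790 in BRE and 7212 to 18060 in WT. The summed level of the 5 basal markers Krt5, Krt14, Krt15, Itga6 and Col17a1 averaged 12840 RPKM at ZT12 and 15210 RPKM at ZT0 in BRE, and 15410 RPKM at ZT12 and 13110 RPKM at ZT0 in WT. The basal sum ran from 10660 to 17670 RPKM in RERE, 12440 to 17770 in EpiRE, 10460 to 16490 in BRE and 11200 to 18690 in WT, and no basal or spinous marker was at 0. The part of these layers in the rhythms of Ivl, Hrnr and Kprp was not tested.

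**Figure D3:**
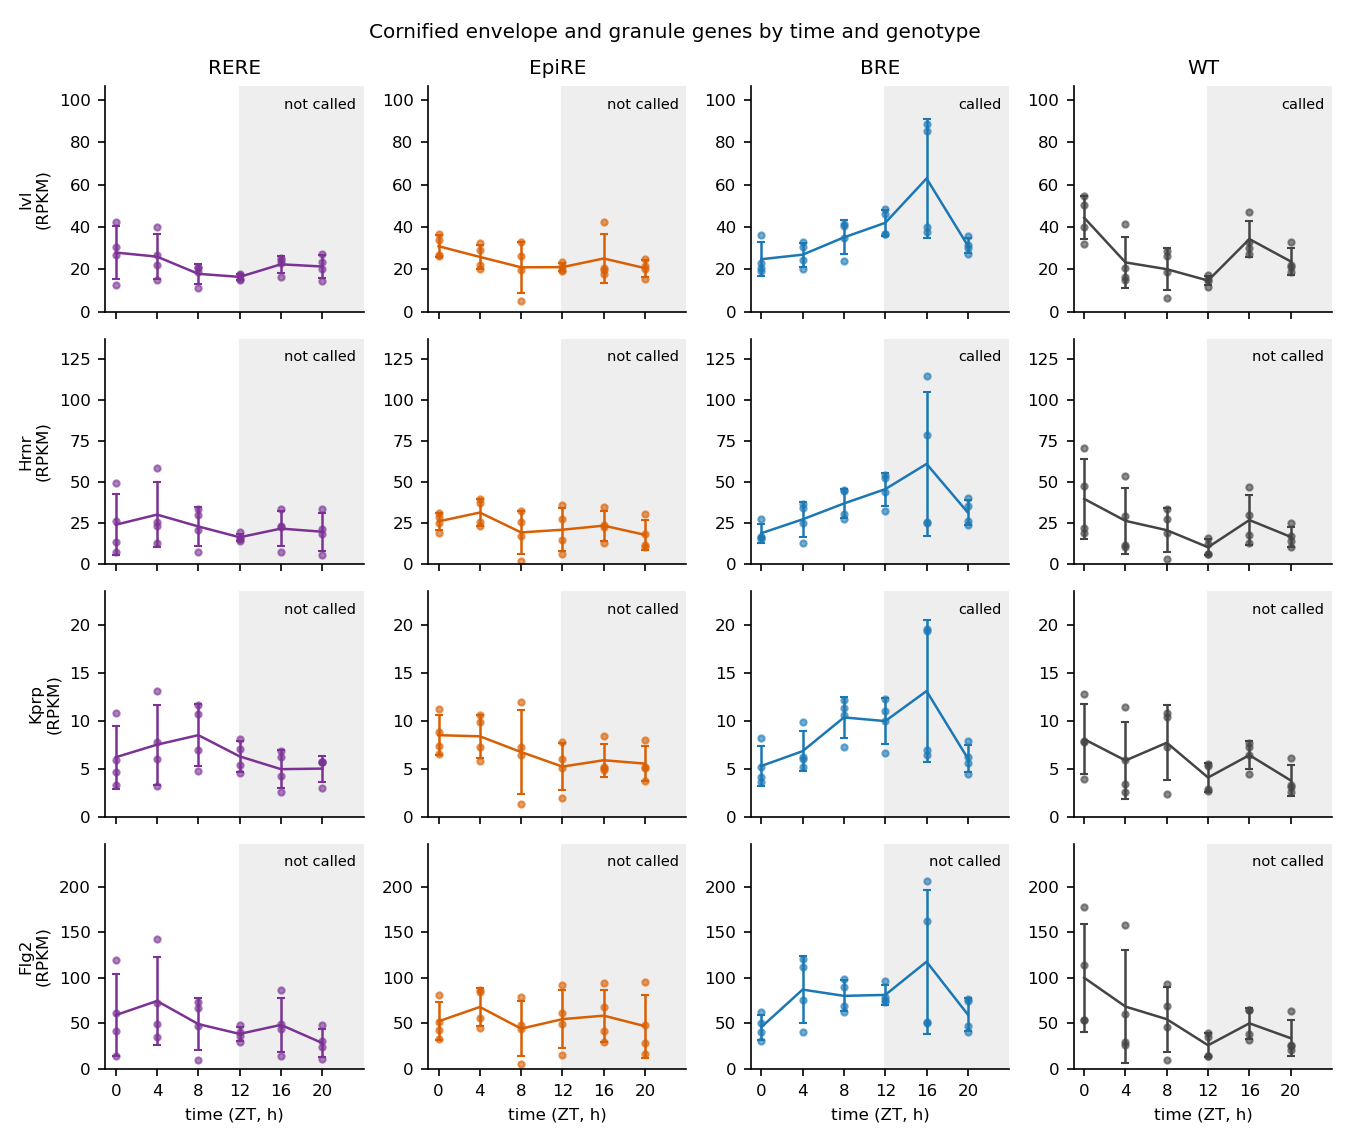
Levels of Ivl, Hrnr, Kprp and Flg2 (RPKM, linear axes from 0) by hour of the day (ZT in hours, dark phase in grey) in RERE, EpiRE, BRE and WT epidermis, with points for single libraries, lines through the means of 4 mice and bars of 1 SD. In BRE the lines of Ivl, Hrnr and Kprp are highest at ZT16, where 2 of the 4 libraries stand far above the others, and at ZT12 Ivl lies at 36.6 to 48.4 RPKM in BRE and at 11.7 to 17.2 RPKM in WT.

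In RERE and BRE the largest fitted daily changes of the complex were those of 2 small proline-rich genes, Sprr2a3 and Sprr2b, with peaks in the early light phase. In WT the size of Sprr2a3 was second to that of Sprr1b (1.38 ± 0.97 log2, not called), and in EpiRE neither was called. SPRR2 proteins bridge loricrin molecules in the envelope. In RERE, Sprr2a3 was at 46.9, 26.1, 16.3 and 14.5 RPKM at ZT4 and at 6.52, 3.38, 3.69 and 7.38 RPKM at ZT20. In BRE it was at 21.8, 27.2, 13.9 and 39.2 RPKM at ZT4 and at 7.29, 4.71, 4.34 and 8.68 RPKM at ZT16. In neither genotype did the 2 hours overlap.

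In EpiRE, Sprr2a3 was at 24.9, 18.02, 33.6 and 11.5 RPKM at ZT0, at 6.92, 10.1, 12.5 and 22.8 RPKM at ZT4 and at 8.86, 8.05, 8.86 and 10.2 RPKM at ZT16, and the values at ZT4 overlapped those of both other hours. In WT it was at 15.6, 11.9, 17.3 and 13.8 RPKM at ZT4 and at 4.02, 4.28, 3.80 and 13.9 RPKM at ZT16, where replicate 4 reached the values of ZT4, and its mean was highest at ZT20 (15.9 RPKM). The fitted size was 2.07 ± 0.40 log2 in RERE (4.21-fold, peak at ZT3.69, adjusted p = 0.00333, limma) and 0.78 ± 0.36 log2 in EpiRE (ZT0.42, adjusted p = 0.367). It was 1.99 ± 0.31 log2 in BRE (3.97-fold, ZT3.88, adjusted p = 0.00156, limma) and 1.26 ± 0.37 log2 in WT (2.40-fold, ZT2.63, adjusted p = 0.0300). The difference of RERE from EpiRE was not called (adjusted p = 0.135, limma), so the rhythms are not shown to differ. The WT call was lost without any 1 of WT ZT12 replicates 3 and 4 and WT ZT16 replicates 1, 2 and 3 (adjusted p up to 0.0647, limma).

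Sprr2b had the same hours as Sprr2a3 at a lower level. In RERE it was at 5.06, 2.76, 1.48 and 2.35 RPKM at ZT4 and at 0.661, 0.246, 0.483 and 1.04 RPKM at ZT20. In BRE it was at 2.24, 3.27, 0.815 and 3.78 RPKM at ZT4 and at 0.392, 0.712, 0.880 and 0.556 RPKM at ZT20. The hours were apart in RERE, and in BRE 1 library of ZT4 lay inside the range of ZT20. The fitted size was 2.15 ± 0.48 log2 in RERE (4.43-fold, ZT3.35, adjusted p = 0.0109, limma), 0.08 ± 0.45 log2 in EpiRE (adjusted p = 1), 1.69 ± 0.34 log2 in BRE (3.23-fold, ZT4.46, adjusted p = 0.00829) and 0.69 ± 0.34 log2 in WT (adjusted p = 0.247). The difference between RERE and EpiRE was again not called (adjusted p = 0.122, limma), nor was that between BRE and WT (0.137).

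Of all runs of 51 bases, the read length, in the Sprr2a3 exons, 60.5% also occur in Sprr2a1, Sprr2a2 or Sprr2b, so that reads may be split or lost among these genes. For Sprr2b the share was 13.7%. The other 3 measured members of the family, Sprr1a, Sprr1b and Sprr4, were not called in any genotype, with adjusted p from 0.150 to 0.958 (limma). Sprr1a and Sprr1b cross-link early and late envelope proteins and rise with injury, and their spread between mice was wide: in WT at ZT20, Sprr1b was at 18.3, 0.265, 0.339 and 15.9 RPKM, 2 libraries high and 2 low.

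Among the S100A genes, S100a16, a calcium-binding protein that is broadly expressed in epithelia, was called in 3 genotypes. In BRE it was at 227, 208, 210 and 206 RPKM at ZT8 and at 180, 141, 175 and 164 RPKM at ZT16. In WT it was at 219, 219, 191 and 196 RPKM at ZT0 and at 157, 175, 173 and 169 RPKM at ZT12. In both genotypes the high and the low hour did not overlap.

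The fitted size for S100a16 was 0.36 ± 0.08 log2 in RERE (1.29-fold, ZT3.42, adjusted p = 0.00877, limma), 0.09 ± 0.08 log2 in EpiRE (adjusted p = 0.766), 0.39 ± 0.07 log2 in BRE (1.31-fold, ZT3.50, adjusted p = 0.00508) and 0.21 ± 0.06 log2 in WT (1.16-fold, ZT23.8, adjusted p = 0.0178). The rhythms of BRE and WT differed (adjusted p = 0.0321, limma), with the BRE peak 3.73 h after that of WT. That difference was lost with median-of-ratios rescaling (0.0742), with time as 6 levels (0.121) and without any 1 of BRE ZT4 replicate 1, BRE ZT8 replicate 1, BRE ZT16 replicate 2, WT ZT4 replicate 3 and WT ZT16 replicate 4 (adjusted p up to 0.0637). Rescaling also ended the WT call (0.0702), and time as 6 levels the RERE call (0.0923).

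S100a1, best known from heart muscle, had in RERE 10.4, 9.12, 9.22 and 9.99 RPKM at ZT4 and 5.97, 6.07, 6.18 and 7.56 RPKM at ZT12. In WT it had 16.5, 11.2, 10.9 and 13.3 RPKM at ZT20 and 9.72, 8.43, 6.77 and 8.85 RPKM at ZT8. The high hour lay above the low hour in each. The size was 0.53 ± 0.10 log2 in RERE (1.45-fold, ZT1.51, adjusted p = 0.00197, limma), 0.28 ± 0.17 log2 in EpiRE (ZT15.7, adjusted p = 0.573), 0.57 ± 0.16 log2 in BRE (1.49-fold, ZT2.31, adjusted p = 0.0455) and 0.43 ± 0.13 log2 in WT (1.35-fold, ZT20.9, adjusted p = 0.0350). The difference of RERE from EpiRE was called (adjusted p = 0.0419, limma). The RERE call held whichever single library was left out, while leaving out 1 library ended the BRE call for 14 of 24 (adjusted p up to 0.0938, limma, without BRE ZT16 replicate 2), the WT call for 7 of 24 (up to 0.0810, without WT ZT8 replicate 3) and the difference for 20 of 48 (up to 0.0818, without EpiRE ZT4 replicate 1).

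S100a4, which is also expressed by T cells, dendritic cells and fibroblasts, was called in BRE, where it was at 25.4, 23.5, 24.1 and 19.1 RPKM at ZT0 and at 17.3, 14.8, 12.1 and 13.3 RPKM at ZT16. The 2 hours did not overlap. Its size in BRE was 0.64 ± 0.15 log2 (1.56-fold, ZT1.40, adjusted p = 0.0155, limma), and in WT 0.64 ± 0.21 log2 (ZT22.7, adjusted p = 0.0638, and 0.0463 with a filter at 5 RPKM). The T cell markers listed (Cd3e, Cd3g, Cd3d, Cd28, Thy1 and Cd2) summed to a mean of 77.4 RPKM at ZT0 and 55.8 RPKM at ZT16 in BRE, and 1 of 5 tested, Cd3d, was called there (adjusted p = 0.0332, limma). The sum ran from 21.7 to 74.9 RPKM in RERE, 34.4 to 75.5 in EpiRE, 41.0 to 92.0 in BRE and 29.3 to 81.4 in WT. Thy1 made up most of it, with a mean over the 96 libraries of 42.0 RPKM, against 6.44 RPKM for Cd3g and 4.8 RPKM for Cd3e. The part of T cells in the S100a4 rhythm was not tested. Of the S100a4 exons, 47.3% of runs of 51 bases also occur in the overlapping gene model Gm42674, so these reads are of uncertain origin.

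S100a11, the most abundant member, was not called in any genotype. It had fitted sizes of 0.10 log2 in RERE, 0.09 in EpiRE, 0.11 in BRE and 0.14 in WT, with adjusted p between 0.279 and 0.681 (limma). With time fitted as 6 levels it was called in WT (adjusted p = 0.0374, limma). S100a10 had 0.26 log2 in RERE (adjusted p = 0.0729, limma) and S100a14 0.24 log2 (adjusted p = 0.0733). S100a6 was not called in RERE (0.44 ± 0.13 log2, adjusted p = 0.0515, limma) or in BRE (0.51 ± 0.15 log2, adjusted p = 0.0619), but with a filter at 5 RPKM it was called in both (adjusted p = 0.0403 in RERE and 0.0459 in BRE).

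**Figure D4:**
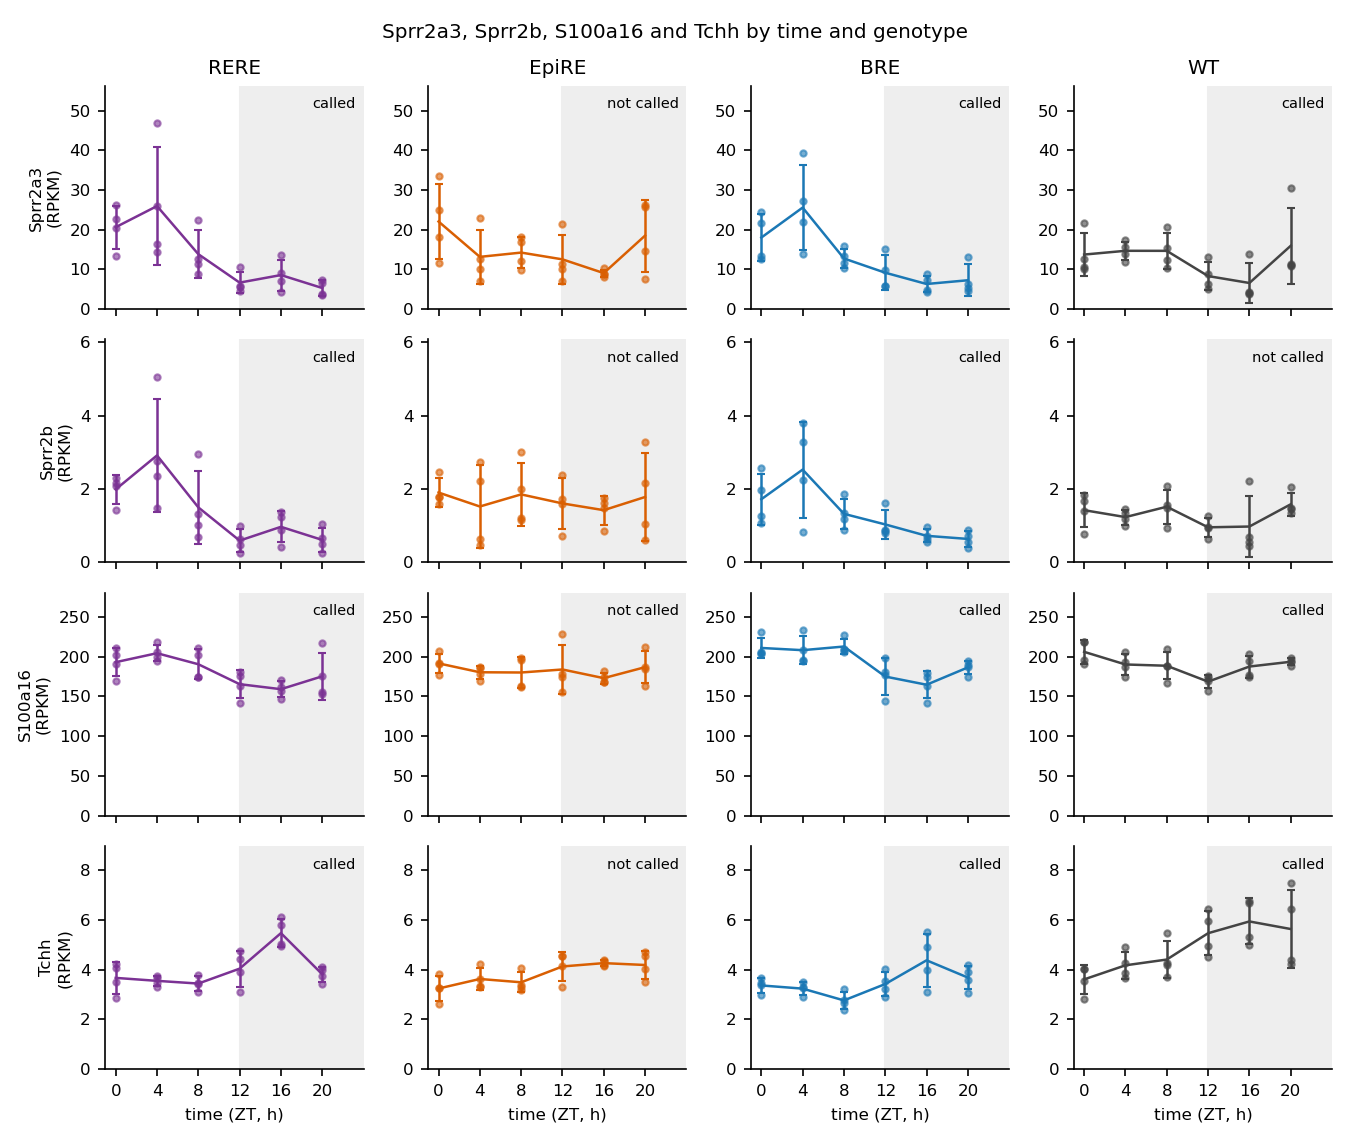
Levels of Sprr2a3, Sprr2b, S100a16 and Tchh (RPKM, linear axes from 0) by hour of the day (ZT in hours, dark phase in grey) in RERE, EpiRE, BRE and WT epidermis, with points for single libraries, lines through the means of 4 mice and bars of 1 SD. Sprr2a3 is highest at ZT4 in RERE and BRE, where single libraries lie between 13.9 and 46.9 RPKM, and Tchh is highest at ZT16 in RERE and WT.

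Trichohyalin had its fitted peak between ZT15.1 and ZT17.9 in all 4 genotypes. In RERE, Tchh was at 5.78, 6.11, 4.95 and 5.04 RPKM at ZT16 and at 3.78, 3.48, 3.42 and 3.08 RPKM at ZT8. In WT it was at 6.77, 4.98, 6.70 and 5.31 RPKM at ZT16 and at 2.83, 4.04, 4.02 and 3.54 RPKM at ZT0. The hours did not overlap in either. The fitted peak was at ZT16.05 in RERE (0.51 ± 0.12 log2, adjusted p = 0.0198, limma), ZT15.5 in EpiRE (0.37 ± 0.10 log2, adjusted p = 0.103), ZT17.9 in BRE (0.47 ± 0.13 log2, adjusted p = 0.0336) and ZT15.1 in WT (0.66 ± 0.15 log2, adjusted p = 0.00634). No difference between genotypes was called for Tchh, the smallest adjusted p being 0.208 for BRE against WT (limma). The BRE call was lost without any 1 of 7 of its 24 libraries (adjusted p up to 0.0630, without BRE ZT8 replicate 4).

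Tchh belongs to the hair follicle, and of 12 hair shaft and inner root sheath markers 2 were abundant enough to test. Krt25 was called in BRE (0.44 ± 0.11 log2, peak at ZT18.5, adjusted p = 0.0221, limma), and none was called in RERE, EpiRE or WT. The summed level of this list ran from 40.7 to 83.9 RPKM in RERE, 48.7 to 86.8 in EpiRE, 37.8 to 71.9 in BRE and 44.0 to 81.6 in WT. Its mean was 74.7 RPKM at ZT16 and 64.8 RPKM at ZT8 in RERE, and 61.5 RPKM at ZT16 and 50.3 RPKM at ZT0 in WT. Krt25 made up most of this sum, with a mean over the 96 libraries of 51.7 RPKM, against 5.06 RPKM for Msx2. The part of follicle cells in the Tchh rhythm was not tested.

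Among the late cornified envelope genes, Lce6a alone was called. In BRE it was at 2.90, 1.66, 2.27 and 2.80 RPKM at ZT0 and at 1.90, 2.14, 2.66 and 2.73 RPKM at ZT12, and the hours overlapped. In WT it was at 4.59, 2.38, 1.54 and 2.36 RPKM at ZT0 and at 0.975, 0.981, 1.34 and 1.25 RPKM at ZT12, without overlap. The size was 0.63 ± 0.18 log2 in RERE (1.55-fold, ZT3.26, adjusted p = 0.0440, limma) and 0.20 ± 0.19 log2 in EpiRE (adjusted p = 0.785). It was 0.35 ± 0.20 log2 in BRE (adjusted p = 0.383, limma) and 1.07 ± 0.26 log2 in WT (2.10-fold, ZT0.21, adjusted p = 0.00914).

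The Lce6a rhythm differed between EpiRE and WT (adjusted p = 0.0282, limma) and between BRE and WT (adjusted p = 0.0126). The first difference was lost without EpiRE ZT12 replicate 4 or without WT ZT0 replicate 1 (adjusted p up to 0.0569, limma), the RERE call without any 1 of 12 of the 24 RERE libraries (adjusted p up to 0.0896), and with time as 6 levels the RERE (0.191) and WT (0.0727) calls and both differences (0.191 for EpiRE and 0.0695 for BRE) were lost. Lce1a1, the most abundant Lce gene, was not called in any genotype (adjusted p from 0.491 to 0.889, limma), nor was Lce1m (0.332 to 0.896). In the 4 measured Lce1 genes other than Lce1m, between 14.1% and 23.5% of exon runs of 51 bases also occur in another gene.

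Across the 5 pairs of genotypes set against each other, 7 differences in rhythm were called among the members. Between RERE and WT none of 26 was called, against 0.453% of all genes, with 4 members at an unadjusted p under 0.05 (limma). Between EpiRE and WT 1 was called, against 8.51% of all genes, and between BRE and WT 4, against 20.2%. Between RERE and EpiRE 1 was called, against 4.04% of all genes, and between RERE and BRE 1, against 4.79%. The first 3 comparisons share the WT libraries and the last 2 the RERE libraries, so they are not independent of each other.

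Without the 7 libraries with Krt71 at or above 2 RPKM, a choice made after the data were seen, 3 members were called in WT, where 27.8% of all genes were called. Tchh (adjusted p = 0.0167, limma) and Sprr2a3 (0.0192) were still called there, Crct1 (0.0396), a cysteine-rich gene of the complex, was called in this setting, and Ivl (0.0527), Lce6a (0.101), S100a16 (0.1415) and S100a1 (0.361) were not. In the same setting 18.4% of all genes and 1 member differed between BRE and WT, Ivl (adjusted p = 0.00677, limma), while Hrnr (0.0511), Lce6a (0.0587) and S100a16 (0.0688) missed the threshold. The differences of Lce6a between EpiRE and WT (0.131) and of S100a1 between RERE and EpiRE (0.0527) were lost as well. The part of follicle cells in these calls was not tested, and in the WT libraries left out Krt25 lay on both sides of the WT median, as given above.

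Some members varied together from mouse to mouse. For each gene, the log2 deviation of each library from the mean of its genotype and hour was correlated over the 96 libraries, for 630 pairs of 36 genes, with p from 100000 permutations within genotype and hour and adjustment over the 630 pairs. Of the 325 pairs of members, 148 had an adjusted p under 0.05, 103 of them positive and 45 negative. Pairs of genes outside these 36 were not examined, so whether this share is particular to the members was not tested. All genes of a library share its depth and normalization: the correlation of a member's deviations with those of log2 depth ran from -0.420 for Crct1 to 0.297 for Hrnr. It was 0.227 to 0.297 for Ivl, Kprp, Flg2 and Hrnr, -0.420 to -0.268 for Crct1 and the measured Lce1 genes, and -0.360 for S100a10. These signs split the genes as the groups below do, and the part of depth in the groups was not tested.

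Flg2, Hrnr, Ivl and Kprp moved together. Flg2 and Hrnr had a Pearson r of 0.952 and a Spearman rho of 0.941 (permutation p = 1e-05 for each, the smallest the permutations can give, adjusted p = 5.73e-05 and 6.43e-05), and r was 0.942 without the 2 libraries farthest out. Within genotypes it was 0.961 in RERE, 0.936 in EpiRE, 0.947 in BRE and 0.964 in WT. The 6 pairs of these 4 genes had r from 0.860 to 0.952, a set chosen after its values were seen. With Sbsn their r was 0.818 to 0.903 and with Krt10 0.700 to 0.790, both of the suprabasal layers, and with Krt14 of the basal layer -0.569 to -0.475.

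The 5 measured Lce1 genes and Crct1 formed another group, also chosen after its values were seen, with r from 0.555 to 0.687 over its 15 pairs. Lce1a1 and Lce1c, for example, had r = 0.687 and rho = 0.674 (permutation p = 1e-05 for each), and 0.634 without the 2 libraries farthest out. Against Flg2, Hrnr, Ivl and Kprp, these genes had r from -0.496 to -0.135. Lor had r from 0.239 (Lce1b) to 0.551 (Crct1) with these 6 genes and from 0.0838 (Flg2) to 0.232 (Kprp) with Flg2, Hrnr, Ivl and Kprp, and the difference between these correlations was not tested.

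S100a10 moved against Flg2. Their r was -0.774 and rho -0.762 (permutation p = 1e-05 for each), with r = -0.751 without the 2 libraries farthest out, and -0.859 in RERE, -0.736 in EpiRE, -0.752 in BRE and -0.757 in WT. S100a10 had r = 0.681 with Krt14. Sprr2a3 and Sprr2b had r = 0.736 and rho = 0.739, with r of 0.721 without the 2 libraries farthest out and 0.835 in RERE, 0.841 in EpiRE, 0.422 in BRE and 0.784 in WT. Sprr1a had r = 0.669 with Sprr1b and 0.619 with Sprr4.

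**Figure D5:**
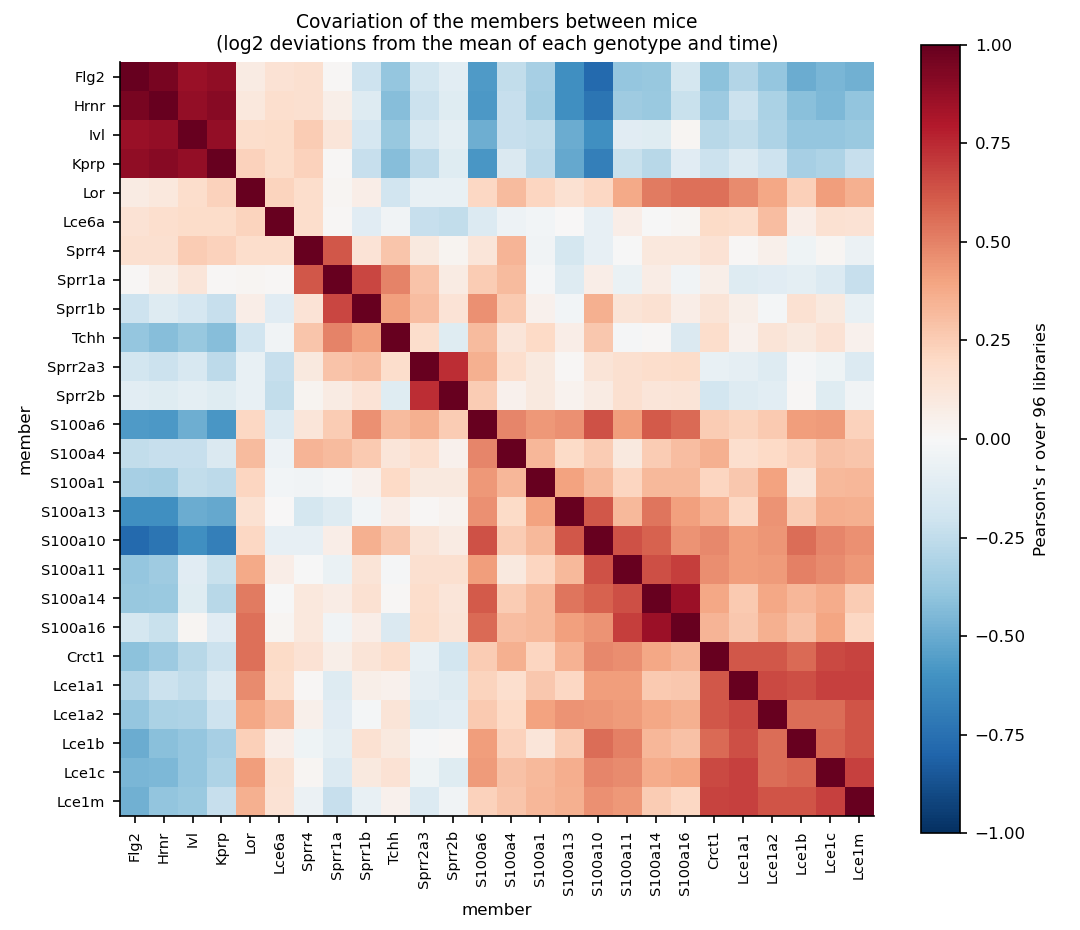
Pearson correlation between genes of their log2 deviations from the mean of genotype and hour, over 96 libraries, for the 26 measured members, on a colour scale from -1 to 1. Flg2, Hrnr, Ivl and Kprp form a positive block (r from 0.860 to 0.952) and are negative with S100a10, to r = -0.774 for Flg2.

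The 34 members under the mean of 1 RPKM include several known from inflamed or internal epithelia. S100a8 and S100a9, the calprotectin subunits released by neutrophils and stressed keratinocytes, averaged 0.685 and 0.444 RPKM, and Rptn (repetin) and Crnn (cornulin) 0.151 and 0.133 RPKM. Of the 34, 16 reached 1 RPKM in at least 1 library, and 11 of those 16 had their highest library in WT. Neither share was computed over all genes under 1 RPKM, so no trait of the members is read from them. Lce3c, of the Lce3 group known from psoriatic and wounded skin, reached 1.65 RPKM in WT ZT12 replicate 4 and averaged 0.311 RPKM. Sprr3, a small proline-rich gene of internal stratified epithelia, did not vary within a genotype, and its highest value, 0.0549 RPKM, is its floor in EpiRE.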

How the data were processed

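Poly(A) RNA of dispase-separated epidermal cells was sequenced with a stranded kit, per the labels' protocols. The submitters' processing notes name Trimmomatic 0.36, HISAT2 2.2.1, SAMtools 1.3.1, featureCounts 1.6.0, edgeR (version not given in the sources used here) and the mm10 build; the gene annotation is not given in the sources used here. The authors deposited 1 table per genotype of log2 values per gene and library. Their unit is not stated there. The values behave as log2 RPKM with a prior count near 2, since their floors fall with gene length and low values fall on whole reads within 0.05 of a read once that prior is taken off, and depth was estimated from these steps. The authors also deposited q-values of JTK_CYCLE and BIOCYCLE per gene. The 96 sample columns of the JTK_CYCLE tables were not used.

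The 24 libraries of a genotype were fitted by themselves in limma (version 3.58.1, under R version 4.3.3; moderated variances with a trend) with the cosine and sine of a 24 h period. The 12144 genes whose mean reached 1 RPKM across the 96 libraries entered the fits. Differences in rhythm were fitted on the 48 libraries of a pair of genotypes as genotype by cosine and genotype by sine, with a free mean per genotype, so that a constant offset between tables drops out. P-values were adjusted by Benjamini-Hochberg over all genes tested. The size is the fitted difference between peak and trough on the log2 scale, which understates the change of genes near the prior. Both fits were tested on simulated data with known rhythms. Correlations between genes were computed with numpy 2.4.6 and scipy 1.17.1 and likewise tested on simulated data. Promoter windows came from RefSeq on GRCm38.p6, and positions and exon runs from GENCODE M21 on mm10. No table of protein sequences was used here.

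The members and gene lists were chosen with earlier results of these data known. Named with values were, in each genotype, the 5 called members with the smallest adjusted p and the 3 with the largest size among them, the 4 called members with the smallest adjusted p in each difference, the 3 most abundant of each family, Lor, Ivl, Hrnr, S100a8 and S100a9, the 2 members on each side of the level limit, and up to 4 called genes of each outside list and genotype. One gene of the transcription factor list is not reported here and was left out of its counts. Sprr1b, S100a6, Crct1, Rptn, Crnn, Sprr3 and Lce3c were named after their values were seen. Replicate numbers showed no pairing of the mice on average. The mean correlation of libraries with the same number at different times lay between -0.0213 and 0.0275 in the 4 genotypes, and the lowest single value was -0.411. Of 60 such pairs per genotype, 20 in RERE, 15 in EpiRE, 18 in BRE and 21 in WT exceeded 0.1, and shared handling at some times was not tested. No 2 libraries were alike beyond a correlation of 0.992. The 4 mice of a group are separate animals per the labels. Counting error at these depths bears most on genes near 1 RPKM, and intervals on single values were not computed because each group has 4 mice.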

Additional observations from a re-analysis of the deposited data

Results flagged for a closer look

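Among 10 called members, the 4 mice of a genotype and time were searched for 1 library far from the other 3 by Dixon's test, and 13 of 240 groups held one. Chance flags about 1 in 20 groups. S100a16 was at 231 RPKM in BRE ZT0 replicate 1, with the others between 204 and 206 RPKM. In the same library Hrnr was at 27.35 RPKM, with the others between 14.9 and 16.4 RPKM. In EpiRE ZT16 replicate 3, Ivl was at 42.2 RPKM (others 17.96 to 20.6) and Kprp at 8.42 RPKM (others 4.89 to 5.18), and this library is the EpiRE library with Krt71 above 2 RPKM.

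S100a4 stood apart in RERE ZT0 replicate 1, at 32.97 RPKM (others 15.9 to 17.9), and in BRE ZT4 replicate 2, at 12.6 RPKM (others 21.9 to 24.2). Sprr2a3 stood apart in WT ZT16 replicate 4, at 13.9 RPKM (others 3.79 to 4.28), and in WT ZT20 replicate 1, at 30.4 RPKM (others 10.9 to 11.3). S100a1 was at 7.56 RPKM in RERE ZT12 replicate 4 (others 5.97 to 6.18) and at 7.43 RPKM in EpiRE ZT20 replicate 3 (others 8.87 to 9.04). Kprp was at 2.95 RPKM in RERE ZT20 replicate 1 (others 5.66 to 5.70), Lce6a at 1.32 RPKM in BRE ZT16 replicate 1 (others 2.33 to 2.61) and Sprr2b at 1.61 RPKM in BRE ZT12 replicate 1 (others 0.789 to 0.866).

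A difference in rhythm between genotypes was called for 7 member and pair combinations by limma's test of genotype by time. BRE differed from WT for Ivl (adjusted p = 0.00396), Lce6a (0.0126), Hrnr (0.0219) and S100a16 (0.0321). EpiRE differed from WT for Lce6a (adjusted p = 0.0282, limma), RERE from EpiRE for S100a1 (0.0419) and RERE from BRE for Ivl (0.00740).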

How the results depend on the processing

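No called rhythm or difference reversed its direction under the alternatives that refit the 24 h harmonic. Only q-values were taken from the authors' searches, and time as 6 levels fits no single peak, so neither can show a reversal. Many calls were lost instead: of 28 rhythms and differences called, 22 without replicate number 2 and 14 with time as 6 levels. The numbers of called members below moved with the setting, in most cases together with the share of all genes called, and the cause was not tested. In RERE, 6 members (16.4% of all genes) became 3 to 4 without each replicate number (8.51% to 10.5%), 3 by the authors' deposited JTK_CYCLE q-values (8.52%) and 0 by those of BIOCYCLE (1.56%). In BRE, 9 members (17.1%) became 4 with time as 6 levels (13.4%), 2 to 7 without each replicate number (1.74% to 15.0%, the lowest of both without replicate 2), 5 by JTK_CYCLE (5.67%) and 0 by BIOCYCLE (0%), as deposited by the authors. In WT, 6 members (34.4%) became 3 with rescaling (31.8%), 3 without a filter (17.0%), 1 to 6 without each replicate number (17.0% to 30.2%), 2 by JTK_CYCLE (20.8%), 0 by BIOCYCLE (10.0%) and 3 without the libraries of high Krt71 (27.8%), an alternative chosen after seeing the data. Without single libraries the counts ran from 5 to 8 in RERE, 6 to 10 in BRE and 4 to 6 in WT. For EpiRE against WT, 1 (8.51% of all genes) became 0 with a filter at 5 RPKM (8.20%, which leaves Lce6a out), without a filter (3.26%), with time as 6 levels (5.18%) and without the libraries of high Krt71 (7.24%), and 0 to 1 without each replicate number (1.19% to 11.3%) or single library. For BRE against WT, 4 (20.2%) became 1 with time as 6 levels (13%), 1 without the libraries of high Krt71 (18.4%) and 0 to 3 without each replicate number (8.33% to 15.4%). For RERE against EpiRE, 1 (4.04%) became 0 with rescaling (3.57%), without a filter (1.57%), with time as 6 levels (2.27%), without the libraries of high Krt71 (3.94%) and without each replicate number (0.609% to 2.11%), and 0 to 1 without single libraries. For RERE against BRE, 1 (4.79%) became 0 with time as 6 levels (3.55%) and 0 to 1 without each replicate number (1.55% to 5.88%). Ivl between BRE and WT was lost only without replicate number 2 (adjusted p = 0.0531, limma). A replicate block gave 6 called members in RERE, 0 in EpiRE, 10 in BRE and 6 in WT, and 0, 1, 4, 1 and 1 differences in the 5 pairs, as listed in the report. With the block, S100a6 was called in RERE (adjusted p = 0.0452, limma) and BRE (0.0442) and S100a4 in WT (0.0253), while Lce6a in RERE (0.0622) and S100a1 in WT (0.0525) were lost. The numbers showed no pairing of the mice on average. S100a6 was also called in RERE with robust variances (0.0429). The EpiRE count was 0, and the count for RERE against WT 0, under every alternative run. Few genes were called in these settings: in EpiRE 0% by BIOCYCLE, 0.0494% without replicate 1 and 4.53% without the libraries of high Krt71. For RERE against WT the share was 0% without replicate 3 and 1.21% without the libraries of high Krt71. Rescaling moved single libraries by -0.0933 to 0.0850 log2. Depth limits the Lce genes and Sprr2b most.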

Other observations

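The members under the mean of 1 RPKM had their highest library in WT for 23 of 34, in RERE for 3, in EpiRE for 6 and in BRE for 2. The same share over all 10240 genes under that mean was not computed, so these counts show no trait of the members. Some of these highest values were low, such as 0.285 RPKM for Sprr2j-ps. Sprr3, counted in EpiRE, was at its floor in every library there. A single library, WT ZT16 replicate 1, was the highest for 10 of the 34, among them Sprr2h (4.03 RPKM), Lce1e (3.68 RPKM) and Lce1d (2.86 RPKM), and WT ZT20 replicate 1 was the highest for 5, among them S100a8 (4.25 RPKM) and S100a9 (1.18 RPKM). Both libraries have Krt71 above 2 RPKM (2.73 and 3.84 RPKM), and Sprr4 was at 57.6 RPKM in WT ZT16 replicate 1. EpiRE ZT20 replicate 2 was the highest for 3, with Lce1i at 3.16, Lce1l at 2.77 and Lce1f at 2.28 RPKM. Tchhl1, a trichohyalin relative, was highest in WT ZT0 replicate 2 (1.02 RPKM).

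Of the 21 tested transcription factors reported here, known to act on genes of the complex, 0 were rhythmic in RERE (limma adjusted p under 0.05), against 16.4% of all genes, 0 in EpiRE, against 2.87%, 2 in BRE, against 17.1%, and 5 in WT, against 34.4%. At an unadjusted p under 0.05 (limma) there were 5 in RERE and 2 in EpiRE. The 2 in BRE were Dlx3 (0.81 ± 0.23 log2, ZT12.6, adjusted p = 0.0464, limma) and Grhl3, which directs barrier formation (0.36 ± 0.10 log2, ZT11.6, adjusted p = 0.0483). Those in WT were Satb1 (0.35 ± 0.08 log2, ZT6.69, adjusted p = 0.00685, limma), Klf4 (0.46 ± 0.12 log2, ZT9.82, 0.0119), Ahr (0.35 ± 0.10 log2, ZT2.93, 0.0229), Arnt (0.12 ± 0.03 log2, ZT22.9, 0.0232) and Nfe2l2 (0.38 ± 0.12 log2, ZT11.3, 0.0476). The rhythms of Grhl1 (adjusted p = 0.0286, limma) and Nfe2l2 (0.00502) differed between BRE and WT.

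Calls in the remaining lists were as follows. In RERE the envelope genes Ppl (0.49 ± 0.07 log2, ZT10.8, adjusted p = 0.000308, limma), Tgm3 (1.18 ± 0.24 log2, ZT12.4, 0.00549) and Tgm5 (0.86 ± 0.23 log2, ZT5.57, 0.0358) were called, and in WT Ppl (0.39 ± 0.06 log2, ZT10.0, 0.000326) and Tgm3 (1.10 ± 0.33 log2, ZT10.5, 0.0347). Of the basal markers, Col17a1 peaked at ZT21.0 in BRE (adjusted p = 0.0307, limma) and at ZT10.0 in WT (0.00651), with a called difference (0.000207), and Itga6 peaked at ZT19.8 in BRE (0.0135). Among T cell markers, Thy1 was called in RERE (1.37 ± 0.18 log2, ZT1.15, adjusted p = 9.94e-05, limma) and WT (1.22 ± 0.14 log2, ZT23.0, 7.17e-06). Fabp5 of the sebaceous list was called in BRE (0.67 ± 0.15 log2, ZT6.91, adjusted p = 0.0150, limma). No marker of Langerhans cells (7 tested), neutrophils (2 of 9), melanocytes (3 of 5), fibroblasts (1 of 6) or wound keratinocytes (4) was called in any genotype, and Krt6a differed in rhythm between BRE and WT (adjusted p = 0.0331, limma).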
